A study of Mus musculus with 2 samples.

Results

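The 8 genes Spp1, Nts, Coch, Lcn2, Comp, Ptn, Adm and Agr2 encode proteins or peptides that enter the secretory pathway, and they were described here across the endothelial subtypes and other cells of mouse collecting lymphatic vessels. They were chosen from these same data, out of 23521 genes listed, as genes found in lymphatic endothelium with earlier results on age in view. Where they were high, and how far Ptn and Agr2 differed with age, is therefore a description, and no test was made. All 8 were present in both tables and are accounted for below.

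The cells came from FVB/N mice of the genotype Prox1-GFP, in which a fluorescent protein reports Prox1, the transcription factor that sets lymphatic endothelial identity. Afferent vessels of the submandibular lymph nodes were the source, cells were sorted by flow cytometry, and single-cell RNA was captured in droplets with a chemistry that reads the 3′ ends of transcripts. The adult library pooled 6 mice aged 12 weeks and the aged library pooled 6 mice aged 93 weeks. Both libraries carry the reporter, no treatment is labelled, and cells bear no mark of their mouse, so each age is 1 sample and the ages could not be compared by a test.

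Collecting lymphatics carry lymph from initial capillaries to the lymph node. Their endothelium has high Prox1 and little of the hyaluronan receptor Lyve1, is wrapped in smooth muscle and bears valves. Endothelial cells release proteins and peptides toward lymph, muscle and matrix, such as the vasodilator peptide adrenomedullin (Adm), which lymphatic development requires, the integrin-binding glycoprotein osteopontin (Spp1) and the peptide neurotensin (Nts).

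The adult table held 7308 cells with a median of 12087.5 UMIs (unique molecular identifiers, each a captured transcript) and the aged one held 13969 cells with a median of 8190. Of the adult barcodes, 6977 (95.5%) were also in the aged table, so these cells were counted once, as adult, and the comparison set 7308 adult cells against the 6992 found in the aged table alone. The 248 adult lymphatic cells that were in both tables had nearly the same member levels in each: Spp1 stood at 1777 and 1753 CPM (counts-per-million values, the UMIs of a gene scaled to the summed UMIs of a group) in the adult and the aged table, and Agr2 at 26.5 and 28.5 CPM. Counts below keep each cell once, and the values with all cells as deposited are given beside the age ratios.

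Cells were clustered with the 8 genes left out, so that none of them defined a group. Lymphatic endothelial-like cells numbered 278 in the adult and 96 in the aged library, with medians of 5983 and 5479 UMIs per cell. They split into a capillary-like subtype (98 adult and 20 aged cells), with Lyve1 at 2419 CPM, and 4 collecting-like subtypes (180 and 76 cells), with Lyve1 between 0 and 9.7 CPM and Prox1 between 11794 and 25385 CPM. The collecting-like subtypes were called by their leading genes: Fgf14 Hgf (71 adult and 22 aged cells), Ptprt Cd74 (37 and 13), Ptprt Mmrn1 (55 and 20) and Tmem108 Neo1 (17 and 21). The name collecting-like rests on the share of each marker list found in 10% of cells, not on the mean marker score. By that score Ptprt Mmrn1 cells were higher for capillary lymphatic (4.46) than for collecting markers (3.39), as were Tmem108 Neo1 cells by a smaller margin, while Fgf14 Hgf (0.12 and 3.39) and Ptprt Cd74 cells (0.50 and 2.84) were higher for collecting markers. Fgf14 Hgf cells held the valve genes Itga9 (807 CPM), Cldn11 (289 CPM), Gja4 (154 CPM) and Foxc2 (96.3 CPM), and Tmem108 Neo1 cells held Neo1 at 897 CPM. A further 359 adult and 286 aged venous-like endothelial cells contained Prox1 at 2360 CPM. Immune markers stood at 0 in the lymphatic cells for 5 of 5 genes. No doublet caller was run, and 8 endothelial cells rich in fibroblast markers were left out.

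The label of the 8 genes held only in part. By level in CPM, a collecting-like subtype ranked first in both libraries for Spp1, Coch, Nts, Adm, Agr2 and Ptn. The ranking covered endothelial, smooth muscle-like and fibroblast-like groups. Lcn2 and Comp ranked first in the capillary-like lymphatic subtype in the aged library, and Ptn was also high in that subtype. By share of UMIs, in contrast, most Agr2 lay in Prox1-expressing venous-like cells, and fibroblast-like cells held 93.8% of the adult Adm UMIs.

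Promoter sequences are shown for Spp1, Coch and Adm, because these 3 genes were found in the same cells, and for Nts, which led another subtype. Each is the 250 bases before the annotated start of transcription, read along the gene (RefSeq, build GRCm38.p6); capitals mark matches to the searched motifs. The Spp1 window, the first of 2 annotated starts, is chr5:104434861-104435110 on the plus strand, Coch is chr12:51593091-51593340 on the plus strand, Adm is chr7:110627407-110627656 on the plus strand and Nts is chr10:102490419-102490668 on the minus strand.
Spp1: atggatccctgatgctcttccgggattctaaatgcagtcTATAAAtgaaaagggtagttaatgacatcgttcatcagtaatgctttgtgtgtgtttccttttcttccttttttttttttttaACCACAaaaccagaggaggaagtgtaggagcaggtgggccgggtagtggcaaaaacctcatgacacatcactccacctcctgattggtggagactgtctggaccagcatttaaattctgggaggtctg
Coch: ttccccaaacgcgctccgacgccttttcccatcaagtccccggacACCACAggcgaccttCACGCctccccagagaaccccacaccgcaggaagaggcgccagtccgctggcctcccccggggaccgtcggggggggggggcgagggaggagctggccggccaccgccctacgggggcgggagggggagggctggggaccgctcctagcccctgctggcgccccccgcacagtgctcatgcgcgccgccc
Adm: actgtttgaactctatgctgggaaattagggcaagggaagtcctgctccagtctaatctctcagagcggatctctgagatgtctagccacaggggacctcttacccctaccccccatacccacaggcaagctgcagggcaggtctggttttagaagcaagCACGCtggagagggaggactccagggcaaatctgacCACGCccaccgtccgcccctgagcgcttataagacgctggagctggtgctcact
Nts: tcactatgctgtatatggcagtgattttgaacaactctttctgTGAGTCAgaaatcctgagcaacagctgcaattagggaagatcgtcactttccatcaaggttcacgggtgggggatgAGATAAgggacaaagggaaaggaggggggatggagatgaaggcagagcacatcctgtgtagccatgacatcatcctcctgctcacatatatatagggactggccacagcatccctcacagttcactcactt

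Motifs of 7 kinds were searched. On both strands these were the AP-1 site, spelled TGAGTCA, and the cyclic AMP response element, spelled TGACGTCA. The RUNX site was searched as TGTGGT on both strands, and the GATA site was searched in the same way as AGATAA. The forkhead site was searched as TGTTTAC on both strands. For the hypoxia element the letters were GCGTG in one form, and the other form searched had the letters ACGTG, again on both strands. The TATA box was searched on the gene strand alone as TATAAA, and no match overlapped another. A RUNX match, ACCACA on the gene strand, lay 128 to 123 bases before the start of Spp1 and 205 to 200 before that of Coch; 14.0% of 32851 mouse promoters hold one. The CACGC form of the hypoxia element lay in Coch and at 2 places in Adm, 90 to 86 and 54 to 50 bases before the start, and is held by 28.2% of promoters in either orientation. Nts had AP-1 (TGAGTCA, 207 to 201 bases before the start; 4.46% of promoters) and AGATAA (131 to 126 bases; 9.99%). The GC content of Coch was 74.8%, that of Spp1 43.6%, that of Adm 56.8% and that of Nts 48.0%, against a median of 52.4% over all promoters. The letters TATAAA lay 211 to 206 bases before the start of Spp1, and 7.59% of promoters hold them. No motif was in all 3 of Spp1, Coch and Adm, and the windows of Lcn2, Ptn and Agr2 held none of them. A promoter was found for 7 of the 8 genes, and Comp had none to search. These matches are letters in a window, and no binding was measured.

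**Figure D1:**
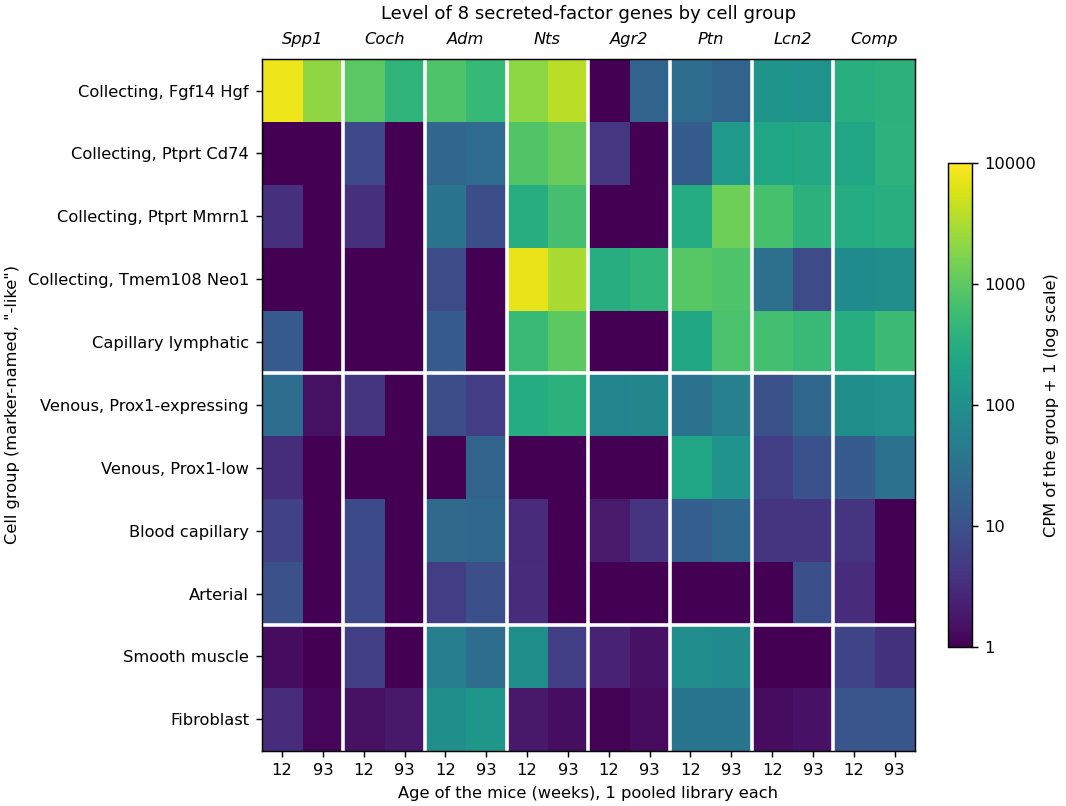
Levels of the 8 genes (colour, CPM of each group's summed UMIs with 1 added, log scale) in endothelial subtypes, smooth muscle-like and fibroblast-like cells (rows) at 12 and 93 weeks (columns), 1 pooled library each. Spp1, Coch and Adm peak in Fgf14 Hgf cells among endothelial groups, Agr2 in Tmem108 Neo1 cells, and Lcn2 in Ptprt Mmrn1 and capillary-like cells.

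Spp1 encodes osteopontin, a secreted glycoprotein that binds integrins and CD44. In the lymphatic endothelium it was nearly confined to Fgf14 Hgf cells, which held 2989 of 2997 adult UMIs and 238 of 238 aged UMIs. The adult cells stood at 7875 CPM and the aged cells at 2190 CPM, a log2 ratio of aged over adult of -1.85 (95% counting interval -2.04 to -1.66). The remaining lymphatic UMIs were 7 in capillary-like and 1 in Ptprt Mmrn1 cells of the adult library.

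Spp1 varied widely from cell to cell. Of the 71 adult Fgf14 Hgf cells, 28 had no UMI, 1 had 1 to 9, 17 had 10 to 49 and 25 had 50 or more, with 213 in the highest. Of the 22 aged cells, 14 had none, 3 had 1 to 9, 3 had 10 to 49 and 2 had 50 or more, with 98 in the highest. The aged cells thus differed both in the share with a UMI (60.6% adult, 36.4% aged) and in the amount among cells that had one, a median of 57 adult and 12.5 aged UMIs. With each cell thinned to 4000 UMIs the shares were 69.8% of 53 adult and 33.3% of 15 aged cells. Since 2 of the 22 aged cells held 98 and 73 of the 238 UMIs, the counting interval is narrower than the spread between cells. Smooth muscle-like cells, at median depths of 6444 and 5580 UMIs, had a Spp1 UMI in 1 of 368 adult and 0 of 265 aged cells (the latter with an exact 95% upper limit of 1.38%). Fibroblast-like cells, at 13164.5 and 12224 UMIs, had one in 0.444% and 0.017% of thinned cells; of their 179 adult UMIs 149 lay in 1 cluster, so the adult share is no measure of background.

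At a finer clustering (resolution 2 in place of 1), 37 of the 71 adult and 8 of the 22 aged Fgf14 Hgf cells fell outside the clusters named lymphatic, for which a higher score of lymphatic than of blood endothelial markers and 3 lymphatic markers in 10% of cells were required. Those adult cells held 2464 of the 2989 Spp1 UMIs and 304 of the 354 Coch UMIs, along with 7171 Prox1 and 7690 eGFP UMIs, eGFP being the reporter. Among the aged ones the figures were 179 of 238 for Spp1 and 24 of 44 for Coch. In the adult library most Spp1 and Coch thus lay in 1 portion of the Fgf14 Hgf cells, one that carries Prox1. The finer division named this portion other blood endothelial. That name was given to endothelial clusters that met neither the lymphatic requirement nor that of a blood endothelial subtype.

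Coch, the gene of cochlin, an extracellular matrix protein best known from the inner ear, followed the distribution of Spp1. Fgf14 Hgf cells held 354 adult UMIs (933 CPM) and 44 aged UMIs (405 CPM), a log2 ratio of -1.20 (-1.69 to -0.75). All other lymphatic cells together held 3 adult UMIs and no aged UMI. A Coch UMI was found in 73.2% of adult and 59.1% of aged Fgf14 Hgf cells, and after thinning in 75.5% of 53 adult cells and in 9 of 15 aged cells, against 0.239% and 0.233% of thinned fibroblast-like cells. Unlike Spp1, Coch had no cell above 28 UMIs in the adult and 7 in the aged library.

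Adm encodes adrenomedullin. Among endothelial cells it too was highest in Fgf14 Hgf cells, with 302 adult UMIs (796 CPM) and 52 aged UMIs (479 CPM), a log2 ratio of -0.73 (-1.19 to -0.31). The other collecting-like cells held 20 adult and 3 aged UMIs and capillary-like lymphatic cells 7 and 0. Prox1-expressing venous-like cells had 8.27 CPM (adult) and 4.24 CPM (aged). Adm was broad in stroma, with 98.4 and 130 CPM in fibroblast-like cells and with 145 and 46 UMIs in smooth muscle-like cells. The level in CPM in adult Fgf14 Hgf cells was thus above that of the fibroblasts, although fibroblasts held most of the transcripts by number of cells.

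Spp1, Coch and Adm were detected in the same cells. Of 220 collecting-like cells thinned to 4000 UMIs, 43 had a Spp1 UMI, and 86% of those (37 cells) also had Coch and 81% (35 cells) had Adm. Among the 177 cells without Spp1, 7% had Coch and 16% had Adm. In the adult library alone, 33 of 38 Spp1 cells had Coch and 32 of 38 had Adm, and in the aged library 4 of 5 and 3 of 5. Lcn2 was in 5 of the 43 Spp1 cells, Ptn in 3 and Agr2 in none, while Comp was in 28 of them. Collecting-like cells comprise 4 subtypes, and nearly all Spp1 UMIs lay in Fgf14 Hgf cells. The contrast between cells with and without Spp1 is therefore also one between subtypes, and these shares were not split by subtype. Of the 71 adult Fgf14 Hgf cells before thinning, with or without Spp1, only 19 had no Coch UMI and 11 no Adm UMI.

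**Figure D2:**
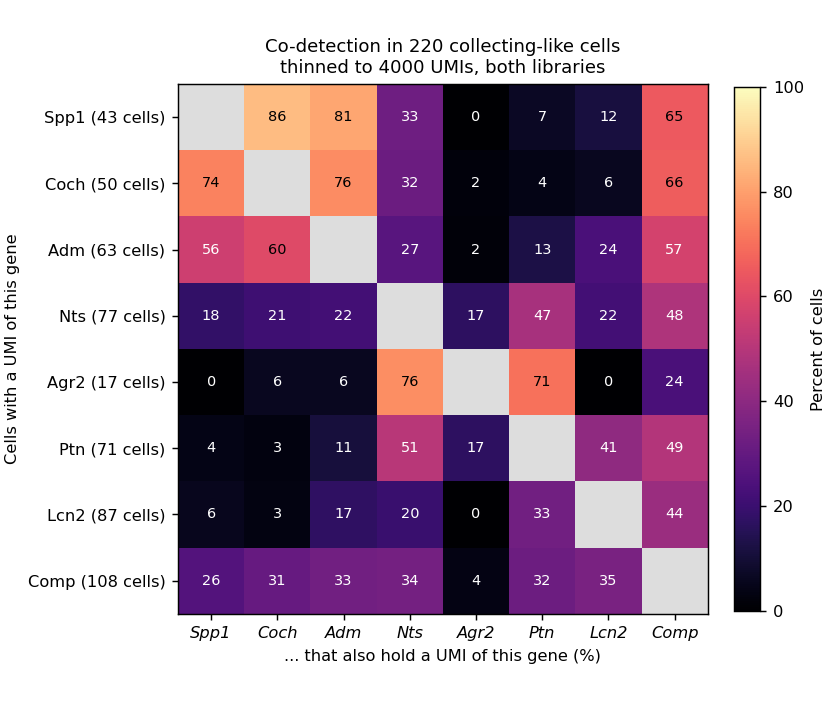
Share of thinned collecting-like cells with a UMI of the row gene that also had a UMI of the column gene, both libraries together (220 cells). The block of Spp1, Coch and Adm stands at 56 to 86%, and Agr2 cells had Nts in 76% and Ptn in 71% but Spp1 and Lcn2 in 0.

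Nts encodes the precursor of neurotensin, a peptide of gut and brain. Every lymphatic subtype of both libraries held it. Tmem108 Neo1 cells had 7269 CPM (adult) and 3116 CPM (aged), with a UMI in 17 of 17 and 18 of 21 cells. Fgf14 Hgf cells had 2087 and 3810 CPM, Ptprt Cd74 cells 815 and 1182, capillary-like cells 507 and 996, and Ptprt Mmrn1 cells 304 and 660. Prox1-expressing venous-like cells, at 301 and 375 CPM, adjoined the Ptprt Mmrn1 subtype in the adult order, and their intervals (282 to 322 and 252 to 364 CPM) overlapped. Prox1-low venous-like cells had no Nts UMI in either library.

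The age ratio of Nts had opposite signs in different subtypes. In Tmem108 Neo1 cells the log2 ratio was -1.22 (-1.39 to -1.06), whereas it was 0.87 (0.69 to 1.04) in Fgf14 Hgf, 0.97 (0.60 to 1.34) in capillary-like and 0.54 (0.18 to 0.88) in Ptprt Cd74 cells. The value of 1.11 (0.69 to 1.54) in Ptprt Mmrn1 cells rested on 1 aged cell with 74 of the 81 UMIs. Few aged cells carried the other positive ratios too. The 2 highest held 192 and 110 of 414 UMIs in Fgf14 Hgf and 42 and 35 of 97 in Ptprt Cd74 cells. In capillary-like cells they held 32 and 19 of 82, and in Tmem108 Neo1 cells 89 and 58 of 439. The counting intervals do not cover this spread between cells. In Fgf14 Hgf cells the highest adult cell had 110 and the highest aged cell 192 UMIs, and 48 of 71 adult and 13 of 22 aged cells had none. No test of the difference between subtypes was possible with 1 library per age.

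Smooth muscle-like cells held 278 adult UMIs (95.9 CPM) and 8 aged UMIs (4.48 CPM). Of the adult UMIs, 149 were in 1 cell. The cluster led by Acta2 and Myh11 had 232 of them in 12 cells, of which 3 also had endothelial UMIs, and the cells with Nts held 136 endothelial UMIs in all. Its cells without any endothelial UMI had 80 Nts UMIs, so the cell with 149 was among those 3. Whether doublets or free RNA contributed was not tested.

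Agr2 encodes a protein disulfide isomerase of the endoplasmic reticulum that secretory epithelia express and can release. In the lymphatic class it was concentrated in Tmem108 Neo1 cells, with 43 adult UMIs (307 CPM) in 9 of 17 cells and 58 aged UMIs (412 CPM) in 10 of 21 cells. The log2 ratio within that subtype was 0.42 with an interval of -0.17 to 1.03. Of the 58 aged UMIs, 24 were in 1 cell, whereas the highest adult cell had 9. All other lymphatic cells held 1 adult and 2 aged UMIs.

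Most Agr2 lay outside the lymphatic class. Prox1-expressing venous-like cells held 180 adult UMIs (62.0 CPM) and 126 aged UMIs (66.8 CPM), which were 76.6% and 57.5% of all Agr2 in each library. A UMI was found in 16.4% of these cells in both libraries after thinning, against 0.068% and 0.083% of thinned fibroblast-like cells. Prox1-low venous-like and arterial-like cells had none. The markers of salivary or other epithelium stood at 1 adult and 0 aged UMIs in the lymphatic class, over 6 genes. Agr2 cells among the 220 thinned collecting-like cells numbered 17, of which 13 had Nts and 12 had Ptn.

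Ptn encodes pleiotrophin, a heparin-binding growth factor whose receptors include syndecans and the phosphatase Ptprz1. Its highest adult level was in Tmem108 Neo1 cells, 929 CPM against 788 CPM in aged cells, a log2 ratio of -0.24 (-0.62 to 0.14). Its highest aged level was in Ptprt Mmrn1 cells, 292 CPM adult and 1320 CPM aged, a log2 ratio of 2.17 (1.82 to 2.54). A UMI was present in 58.2% of adult and 80.0% of aged cells of that subtype. The 2 highest aged cells held 48 and 31 of its 162 Ptn UMIs, and the 2 highest adult cells 21 and 12 of 114.

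In capillary-like lymphatic cells Ptn stood at 246 CPM adult and 704 CPM aged, a log2 ratio of 1.51 (1.05 to 1.97). Ptprt Cd74 cells had 4 adult UMIs in 1 of 37 cells and 12 aged UMIs in 7 of 13 cells. Fgf14 Hgf cells, by contrast, held 10 adult and 2 aged UMIs. Outside the lymphatic class, Prox1-low venous-like cells had 221 and 108 CPM and fibroblast-like cells 34.7 and 34.4 CPM, and fibroblasts held 76.6% and 81.2% of all Ptn UMIs.

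Lcn2 encodes lipocalin 2, which binds iron-carrying siderophores and is known from neutrophils and inflamed epithelium. Ptprt Mmrn1 cells held 268 adult UMIs (686 CPM) and 46 aged UMIs (375 CPM), a log2 ratio of -0.87 (-1.36 to -0.42). Capillary-like cells held 335 adult UMIs (629 CPM) and 42 aged UMIs (510 CPM), a log2 ratio of -0.30 with an interval of -0.80 to 0.16. These 2 subtypes did not differ beyond their counting intervals in the adult library (606 to 773 and 564 to 700 CPM).

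Lcn2 was lower in the other subtypes, at 225 and 256 CPM in Ptprt Cd74, 119 and 110 in Fgf14 Hgf, and 4 adult and 1 aged UMIs in Tmem108 Neo1 cells. It was in 87.3% and 75.0% of Ptprt Mmrn1 cells and in 0.051% and 0.133% of thinned fibroblast-like cells. The 4 neutrophil markers listed in the tables summed to 1 UMI in the lymphatic cells of each library. Of 87 thinned collecting-like cells with Lcn2, only 3 had Coch and 29 had Ptn.

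Comp encodes cartilage oligomeric matrix protein, a thrombospondin of cartilage and tendon. It was spread over the lymphatic subtypes, with 319 adult and 368 aged CPM in Fgf14 Hgf, 299 and 326 in Ptprt Mmrn1, 221 and 390 in Ptprt Cd74 and 312 and 546 in capillary-like cells. The adult intervals of Fgf14 Hgf (265 to 381 CPM), capillary-like (266 to 363) and Ptprt Mmrn1 cells (248 to 359) overlapped. Tmem108 Neo1 cells were lower, at 85.8 and 92.3 CPM, near the Prox1-expressing venous-like cells at 97.8 and 103 CPM. The cartilage and tendon markers summed to 1 adult and 10 aged UMIs in the lymphatic class, 10 of the 11 being Thbs4. Fibroblast-like cells had 10.2 and 10.9 CPM of Comp and, being many, held 51.0% and 69.4% of its UMIs.

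**Figure D3:**
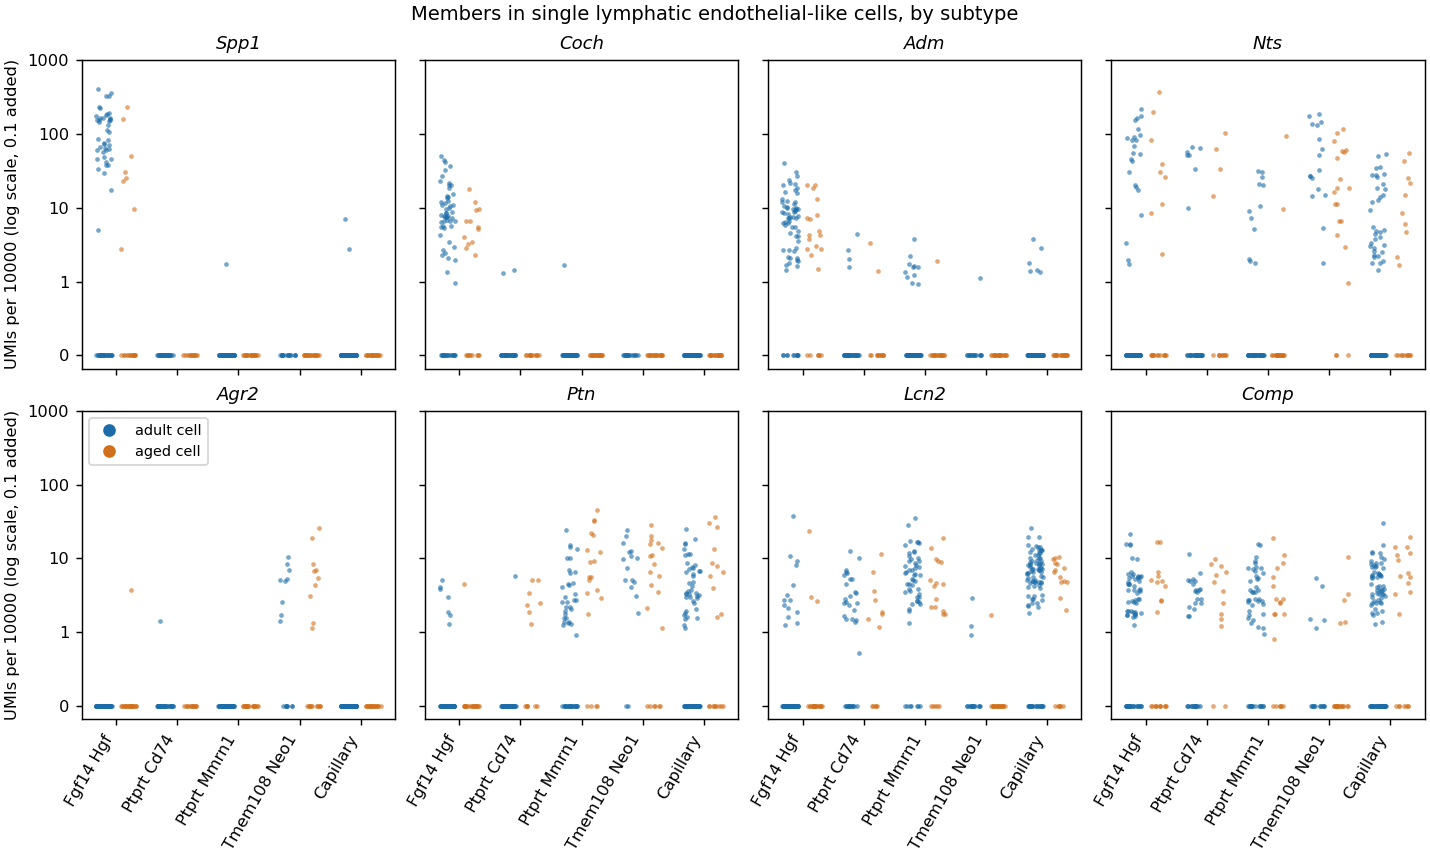
UMIs of each gene per 10000 UMIs (vertical, log scale with 0.1 added) in single lymphatic endothelial-like cells, by subtype (horizontal) and library (colour), each point a cell. Spp1 and Nts reach their highest values in few cells, with many cells of the same subtype at 0, while Comp is low and spread over all subtypes.

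Most lymphatic cells held a UMI of at least 1 of the 8 genes. The genes were chosen as found in this endothelium and no such share was taken in other cells, so the counts are a description. Of 256 collecting-like cells, 8 had no UMI of any of them, 31 had 1, 154 had 2 or 3 and 63 had 4 or more, with 6 as the maximum. At least 1 was found in 96.9% of collecting-like and 95.8% of capillary-like lymphatic cells.

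With all lymphatic subtypes summed, Ptn and Agr2 were 1.5-fold or more higher in the aged library and Spp1, Coch, Lcn2 and Adm 1.5-fold or more lower, while Nts and Comp lay within 1.5-fold. The background is that 7.77% of 6073 genes measured in these cells were higher and 9.22% lower past the same fold, 17.0% in either direction. Because the genes were chosen with age results in view, nothing is read from the 6 of 8 against that share. To be measured, a gene needed a UMI in 10% of the cells of at least 1 library. Agr2 reached that in the aged library alone and Spp1 in the adult library alone, each the library where it was higher. In collecting-like cells alone the same 2 genes were higher and the same 4 lower, where 9.33% of 4919 genes were higher and 7.89% lower. The median log2 ratio in the whole class was -0.33 over the 8 genes and 0.03 over all genes measured.

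Spp1 stood at 1721 CPM in adult and 443 CPM in aged cells, a log2 ratio of -1.95 (-2.15 to -1.77), and Coch from 205 to 82.0 CPM, -1.31 (-1.81 to -0.87). Adm went from 189 to 102 CPM, -0.88 (-1.32 to -0.47), and Lcn2 from 413 to 227 CPM, -0.86 (-1.15 to -0.58). Ptn went from 223 to 643 CPM, 1.52 (1.31 to 1.74). Agr2 went from 25.3 to 112 CPM, 2.10 (1.56 to 2.74). Nts went from 1402 to 2074 CPM, 0.56 (0.46 to 0.67), and Comp from 277 to 317 CPM, 0.19 (-0.07 to 0.45). The intervals cover counting error only, not the spread between cells, mice or libraries.

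The mix of subtypes moved with these ratios. Tmem108 Neo1 cells were 6.12% (3.60 to 9.61%) of adult and 21.9% (14.1 to 31.5%) of aged lymphatic cells, and capillary-like cells 35.3% and 20.8%, whereas Fgf14 Hgf cells were 25.5% and 22.9%. With the subtypes weighted the same, the log2 ratio of Agr2 was 0.46 in place of 2.10 and that of Ptn 0.98 in place of 1.52, while Spp1 stood at -1.85, Coch at -1.21, Adm at -0.76 and Lcn2 at -0.42. Agr2 and Lcn2 thus lay within 1.5-fold under this weighting. Without the Tmem108 Neo1 cells Adm was -0.56 and Lcn2 -0.55, both within 1.5-fold. At the clustering resolution of 2 Coch stood at 0.23, from 53 adult and 20 aged UMIs. The ratio of Agr2 summed over the class thus differed from its ratio inside the subtype that holds it. Cells bear no mark of their mouse, so each was called female or male from its own RNA. This left 41 adult and 15 aged lymphatic cells uncalled. In male cells alone Agr2 stood at 0.21 (-1.43 to 1.67, from 15 and 6 UMIs) and in female cells at 2.31 (1.62 to 3.09). Spp1 was -0.98 in female and -2.55 in male cells, and Adm -0.58, within 1.5-fold, and -1.98. Nts was 0.15 in female and 1.10 (0.93 to 1.27) in male cells, past 1.5-fold in the male cells, and in collecting-like cells -0.20 and 1.04.

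With all cells of both tables as deposited, where adult barcodes recur in the aged table, every ratio was nearer 0 than with each cell once: Spp1 -0.46, Coch -0.33, Adm -0.33, Lcn2 -0.15, Nts 0.28, Comp 0.10, Ptn 0.77 and Agr2 1.20. The fibroblast marker list summed to 246 CPM in adult and 363 CPM in aged lymphatic cells, mostly Dcn, and the smooth muscle list to 27.0 and 0 CPM. The list of 6 capillary blood endothelial markers summed to 420 and 1377 CPM in the lymphatic class, with 1 and 0 of them at 0, and to 408 and 1552 CPM in collecting-like cells. Its part in the age ratios was not tested. In cells without a UMI of 5 stromal or immune genes the ratios were -1.92 for Spp1, -1.53 for Coch, 1.75 for Ptn and 2.51 for Agr2.

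**Figure D4:**
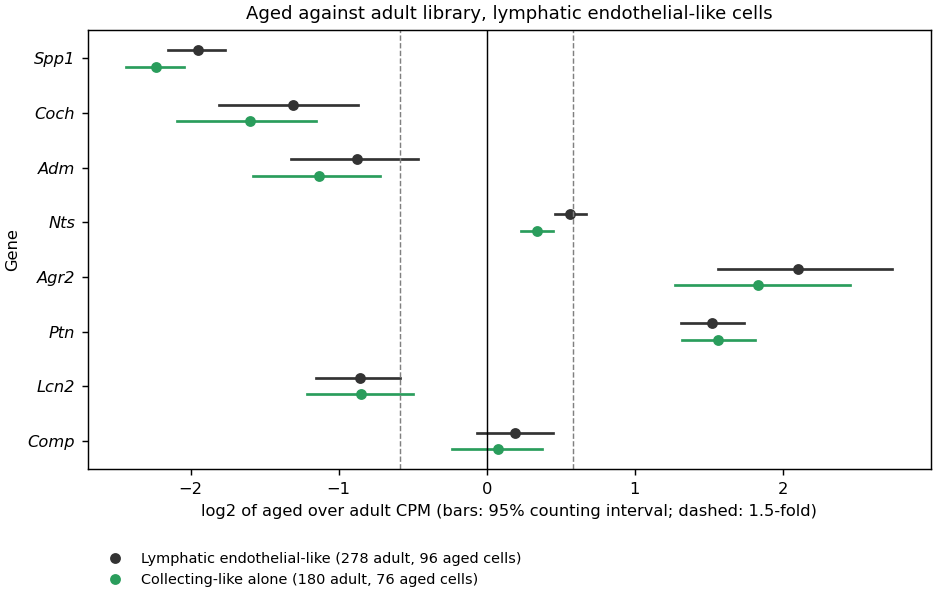
Log2 ratio of aged over adult CPM of the 8 genes in all lymphatic endothelial-like cells (black) and in collecting-like cells alone (green), with bars for the 95% counting interval and dashed lines at 1.5-fold. Spp1, Coch, Adm and Lcn2 lie left of the lower line, Ptn and Agr2 right of the upper one, and Nts and Comp between the lines in both sets of cells.

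Outside the lymphatic class fewer of the genes could be compared. In Prox1-expressing venous-like cells 4 were measured, and Ptn was 1.5-fold or more higher, with 32.7 CPM adult, 54.1 CPM aged and a log2 ratio of 0.71 (0.31 to 1.14); 7.41% of 7087 genes were higher there and 5.91% lower. Agr2 (0.11) and Comp (0.07) lay within 1.5-fold in the same cells. Nts also did when all cells were summed (0.32), but among the cells called female it stood at 1.67 (1.46 to 1.89) and among those called male at -1.04 (-1.35 to -0.74), past the fold in opposite directions. Adm was lower in aged smooth muscle-like cells, with a log2 ratio of -0.93 (-1.47 to -0.47), where 3.6% of 7749 genes were higher and 9.74% lower. In fibroblast-like cells Adm (0.39) and Ptn (-0.01) lay within 1.5-fold, as did most genes there (1.79% of 8730 were higher and 3.68% lower). Ptn was -0.23 in female and 0.81 in male fibroblast-like cells, whose numbers were 2961 and 2371 in the adult and 2249 and 3181 in the aged library.

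Partner genes of the 8 factors were taken from lists of receptors, processing enzymes and relatives. Of 61 listed, 56 were in the tables and 28 were measured in the lymphatic class. Of these, 4 were 1.5-fold or more higher and 1 lower in the aged library, with a median log2 ratio of 0.29. The share of all genes past that fold was 17.0%. The ratios of partner genes are sums over the class, whose mix of subtypes differed between the libraries. The part of that mix in them was not tested.

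Adm signals through the receptor Calcrl with Ramp2, and Ackr3 binds and clears it. Calcrl went from 223 to 470 CPM, a log2 ratio of 1.07 (0.84 to 1.30), and Ackr3 from 258 to 445 CPM, 0.79 (0.56 to 1.02). Over both libraries Calcrl stood at 308 CPM in collecting-like and 208 CPM in capillary-like cells, and Ackr3 at 358 and 151 CPM. Ramp2 (455 to 619 CPM, 0.44) and the amidating enzyme Pam (216 to 304 CPM, 0.49) lay within 1.5-fold. Both parts of the adrenomedullin receptor were therefore present in the lymphatic cells of both libraries.

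Integrins that bind osteopontin were present too. Itga9, also a valve gene, went from 366 to 453 CPM, Itgb1 from 318 to 386, Itgav from 211 to 274 and Itga5 from 63.8 to 78.3 CPM, all within 1.5-fold. Itgb3 went from 32.7 to 65.2 CPM, a log2 ratio of 0.97 (0.34 to 1.63). The other osteopontin receptor, Cd44, had 4 UMIs in the class.

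Of the genes around Nts, the protease Pcsk5, at 27.9 CPM in aged cells, was 1.5-fold or more lower (log2 ratio -0.82, -1.74 to -0.04), and Furin went from 39.1 to 54.0 CPM, within 1.5-fold. Sort1, which binds neurotensin, had 11 UMIs. The 5 measured genes around Ptn, among them nucleolin (Ncl, 568 to 516 CPM) and Sdc4 (117 to 106 CPM), all lay within 1.5-fold. Of the 3 Lcn2 receptors none was measured, and Slc22a17 had 7 UMIs. In the Coch and Comp lists no gene was measured; the aggrecanase Adamts4 had 72 UMIs in the lymphatic class, and the thrombospondin Thbs1 had 70 there and 823 CPM in smooth muscle-like cells. Among 12 measured genes of endoplasmic reticulum folding listed with Agr2, the isomerase Pdia4 was higher (36.2 to 61.5 CPM; 0.75, 0.11 to 1.39) and 11 lay within 1.5-fold, such as the chaperone genes Hspa5 (692 to 768 CPM) and Hsp90b1 (486 to 585 CPM) and the isomerase Pdia3 (286 to 417 CPM).

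**Figure D5:**
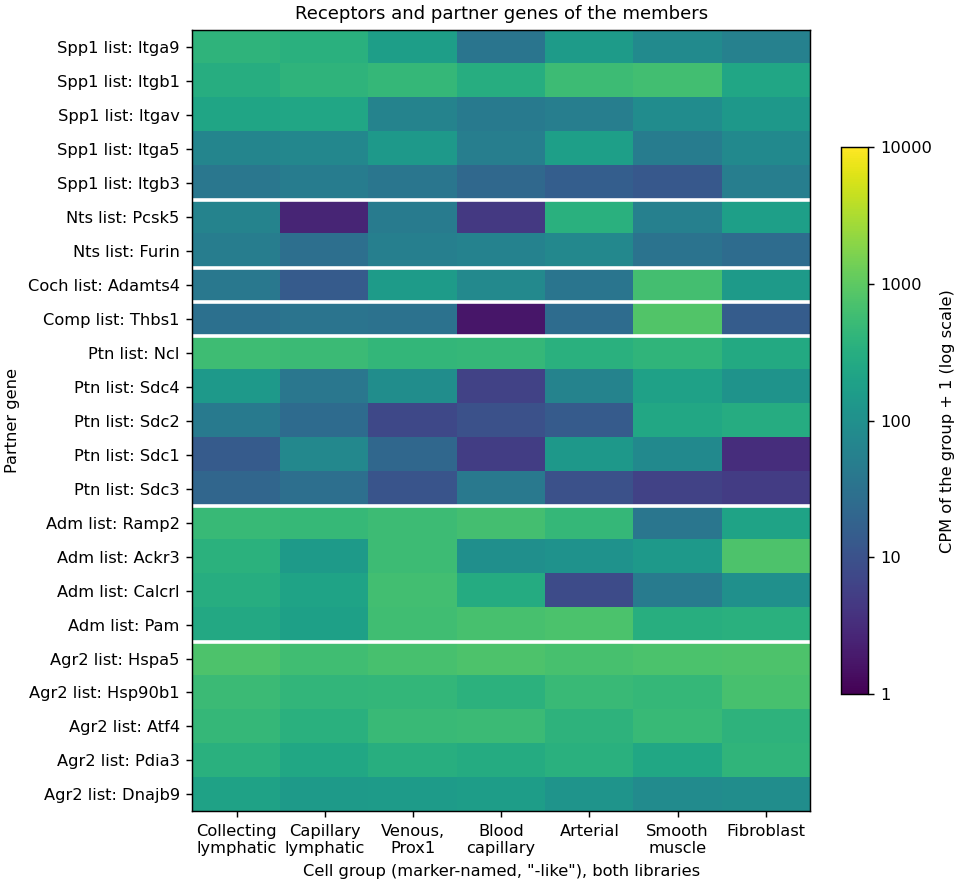
Levels of the named partner genes (rows, grouped by the factor they belong to) in 7 cell groups (columns), both libraries together, as CPM of the group on a log colour scale with 1 added. The adrenomedullin receptor genes Calcrl and Ramp2 are present in both lymphatic groups, and Adamts4 and Thbs1 are brightest in smooth muscle-like cells.

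The genes most alike in pattern were found over 22 points, each a cell group of 1 library with 10 or more cells, among 10251 genes. The points share libraries and differ in depth, so the correlations are descriptions. Spp1 was closest to Coch (Pearson r 0.91), then Rspo2 (0.80), a Wnt agonist, and Pak5. Nts was closest to the reporter eGFP (0.96) and to Prox1 (0.95), Agr2 to Tmem108 (0.93) and Comp to Gpm6a (0.93). Lcn2 was closest to Sbds (0.92), Ptn to Grsf1 (0.83) and Adm to Ptgfr (0.80), a prostaglandin receptor. Among pairs of the 8 genes, Lcn2 and Comp stood at 0.84, as did Nts and Comp, and Coch and Adm at 0.69.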

How the data were processed

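Single-cell RNA of 2 pooled libraries (1 adult, 1 aged) was analysed. Per the submitters' processing notes, Seurat 5.0.3 was used, and the builds GRCm39 and mm10 are named with no role; the sources used here do not give the aligner or the cell filters. Each value the authors deposited is a natural log, taken of 1 plus the gene's UMIs scaled to 10000 per cell; this was found from the values. Dividing by each cell's smallest value gave whole numbers for 100% of values (tolerance 0.01), so UMIs were recovered. The aged table has row numbers for names, and rows were named by adult row order: over shared cells 15460 of 15551 rows (99.4%) matched their own position best, the 8 genes among them.

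Cells were clustered (Python 3.11.15, numpy 2.4.6, scipy 1.17.1, scikit-learn 1.9.0, igraph 0.11.9, Leiden) on 2000 variable genes without the 8 members, using 30 components, 15 neighbours and a resolution of 1. Clusters were named from fixed markers. The split of venous-like cells at 500 CPM of Prox1, the naming of lymphatic clusters and the removal of cells above 40 fibroblast-marker UMIs per 10000 were set after seeing the data. The members and lists were chosen with earlier results of these data known. UMIs were summed per group and library. Log2 ratios add 1 CPM, and intervals are 95% exact (Poisson, Clopper-Pearson, conditional binomial). A gene was measured with a UMI in 10% of cells of a library and 50 UMIs over both libraries summed. Counts of genes past 1.5-fold were made for groups with 50 or more cells in each library. Lymphatic subtypes below that size were given ratios for the members alone. All 8 members, up to 5 genes per partner list and the 3 most alike genes per member were named. The ratio with its interval, the recovery of UMIs and the thinning were tested on simulated data. The simulated sums had counting error only, so spread between cells was not covered, and clustering and naming were not tested in this way.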

Additional observations from a re-analysis of the deposited data

How the results depend on the processing

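In the lymphatic class 2 of the 8 genes were higher and 4 lower past 1.5-fold. With all cells of both tables as deposited (275 adult and 337 aged cells) the count of lower genes was 0. With the subtypes weighted the same the count of higher genes was 1 and that of lower genes 3, as Agr2 and Lcn2 fell within the fold, and without Tmem108 Neo1 cells, an alternative chosen after seeing the data, the count of lower genes was 2. At a clustering resolution of 2 Coch stood at 0.23 in place of -1.31; 37 adult and 8 aged Fgf14 Hgf cells then left the class, leaving 53 adult and 20 aged Coch UMIs. Leaving out each subtype and the highest cell were also chosen after seeing the data.

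Over 17 alternatives Spp1 ranged from -2.78 to -0.46 and passed the fold lower in 16, Ptn from 0.77 to 1.99 (higher in 17) and Agr2 from 0.21 to 2.51 (higher in 15). The alternative without Tmem108 Neo1 cells leaves out 43 of 44 adult and 58 of 60 aged Agr2 UMIs. Its ratio for Agr2 therefore carries little information. Coch passed lower in 15, Adm (-1.98 to -0.33) and Lcn2 (-1.27 to -0.15) in 14. Nts (-0.17 to 1.10) passed higher in 3, male cells among them, and Comp (-0.19 to 0.56) in 0. With no filter beyond 1 UMI in each library, 32.9% of 12836 genes passed the fold in either direction.

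No paired analysis was possible because each age is 1 library. Few cells hold most Spp1 and Nts UMIs. In the aged library, 1 Tmem108 Neo1 cell held 24 of 58 Agr2 UMIs, and 2 Ptprt Mmrn1 cells held 48 and 31 of 162 Ptn UMIs. Counting intervals thus understate the error, and subtypes of 13 to 22 aged cells limit what a ratio shows.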

Other observations

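Some stromal clusters held the factors too. Spp1 UMIs of fibroblast-like cells lay mostly in a cluster led by Mfap4 and Fmod, with 149 UMIs in 254 adult cells (61.5 CPM, a UMI in 8.66% of them) and 0 in 81 aged cells. Coch had 41 UMIs in 168 aged cells of a cluster led by Lgr5, Mfap4 and Stk32a (18.0 CPM), which held 4 adult cells with 5 Coch UMIs. Adm was high in the same cluster, at 355 CPM adult and 200.4 CPM aged, and in a cluster led by Prg4, the gene of the joint lubricant lubricin, at 184 and 196 CPM. Comp in the Prg4 cluster stood at 65.0 CPM in 219 adult cells and 236 CPM in 9 aged cells. In a cluster led by Myoc and Ccn5, Comp stood at 19.9 CPM adult and 58.2 CPM aged. Prox1-expressing venous-like cells held Spp1 in 2 adult cells, with 54 and 24 UMIs, and in 1 aged cell with 1 UMI.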
